A study of Mus musculus with 21 samples.

Results

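Genes of the molecular motors that carry cargo along microtubules and actin were compared between the cortex of mice exposed to high-frequency head impact (HF-HI) and that of sham mice. The members are the genes whose GENCODE mouse symbol begins with Kif and a digit, is Kifap3 or Klc1 to Klc4, begins with Dync or Dynl, is Dctn1 to Dctn6, or begins with Myo or Myh and a digit. By this rule 45 members were found among the 5544 genes of the table, all of them protein-coding, whereas 109 symbols of the annotation match it. They fall into 19 kinesin genes, 10 cytoplasmic dynein genes, 6 dynactin genes and 10 myosin genes. The kinesin class includes Kif1bp, which by its name is matched by the rule although it encodes a kinesin binding protein and not a motor.

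All mice were wild-type male C57BL/6 animals of 12 weeks. The 11 HF-HI mice received repeated daily head impacts under isoflurane anaesthesia, and the 10 sham mice received the anaesthesia and handling without impact. Cortex was taken 24 h after the final procedure, and total RNA was made into 1 stranded library per mouse after removal of ribosomal RNA. The samples are whole cortex, so in every comparison fewer cells of a type and less RNA per cell cannot be told apart.

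Kinesins are motors that walk along microtubules, most of them towards the plus ends, which in axons point away from the cell body. Cytoplasmic dynein walks towards the minus ends and needs dynactin to bind cargo and to move over long distances. Myosins act on actin filaments, either as contractile filaments or as single carriers in dendritic spines and at the cell cortex. In neurons these motors supply axons and synapses with vesicles, mitochondria and receptors, and dynein returns material to the cell body.

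The comparison with the largest difference among the members concerned a pair of closely related dynein light chains, Dynll1 and Dynll2. Both encode small dimeric proteins that sit at the tail of dynein, bind short motifs in many other proteins and are also found on myosin V. Dynll1 (ENSMUSG00000009013) is coded on the minus strand of chr5:115298696-115300644 and Dynll2 (ENSMUSG00000020483) on the minus strand of chr11:87981433-87984003 (coding exons and the introns between them, GRCm38, GENCODE). The coding sequences are shown because the contrast between these genes rests on reads being assigned to the right copy. Capitals mark the bases at which they differ.
Dynll1: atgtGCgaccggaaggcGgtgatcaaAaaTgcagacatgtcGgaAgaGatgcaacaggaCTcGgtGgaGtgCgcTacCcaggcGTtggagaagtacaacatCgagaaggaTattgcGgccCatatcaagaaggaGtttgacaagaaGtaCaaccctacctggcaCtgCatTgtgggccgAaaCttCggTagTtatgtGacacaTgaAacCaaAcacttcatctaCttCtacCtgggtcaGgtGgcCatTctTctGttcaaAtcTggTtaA
Dynll2: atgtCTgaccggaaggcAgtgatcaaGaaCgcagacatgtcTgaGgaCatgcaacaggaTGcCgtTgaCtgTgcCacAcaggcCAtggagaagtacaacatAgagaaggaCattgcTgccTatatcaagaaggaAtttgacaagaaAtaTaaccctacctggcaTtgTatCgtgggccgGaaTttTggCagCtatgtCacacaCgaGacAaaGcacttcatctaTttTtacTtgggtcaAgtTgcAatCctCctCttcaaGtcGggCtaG
Of 270 bases, 219 are identical (81.1%) and 51 differ, 46 of these at the third position of a codon. The longest run of identical bases is 16 within the coding sequences and 18 anywhere in the annotated transcripts, and no run of 50 bases is shared between the genes. Dynll2 shares no such run with any other gene. Of the 50-base runs in Dynll1 transcripts, 3.11% also occur in other genes, spread over 475 of them.

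Dynll2 was higher in every HF-HI library than in any sham library. Its variance-stabilized values, scaled to library size and expressed in log2 units, ran from 9.18 to 10.56 in sham (median 9.95) and from 11.04 to 11.94 in HF-HI (median 11.46). The sham values fell into a lower set of 3 libraries, sham replicates 1, 2 and 3 at 9.18, 9.22 and 9.21, and 7 libraries from 9.85 upwards. The sham mean was 9.88 ± 0.519 (SD, n = 10) and the HF-HI mean 11.47 ± 0.225 (SD, n = 11), the larger SD being that of sham. The difference, HF-HI minus sham as for all differences here, was 1.59 ± 0.155 (SE) on the log2 scale, which is 3.02 times the sham level after back-transformation (limma's moderated test, Benjamini-Hochberg adjusted p = 1.40e-08). With the GC trend of each library removed (described with the counts over all members) it was 1.502 (adjusted p = 6.63e-08). It was the fifth largest positive difference among the 5544 genes.

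Dynll1 went the other way. Its values ran from 10.90 to 11.28 in sham (median 11.07) and from 10.64 to 10.94 in HF-HI (median 10.77). All 11 HF-HI libraries lay below the sham median and 9 lay below the lowest sham library, although the ranges overlapped between 10.90 and 10.94. The difference was -0.26 ± 0.0457 (SE), a fall of 16.4% on the linear scale (limma, adjusted p = 3.77e-05), and it was -0.28 (adjusted p = 1.56e-05) without the GC trend.

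**Figure D1:**
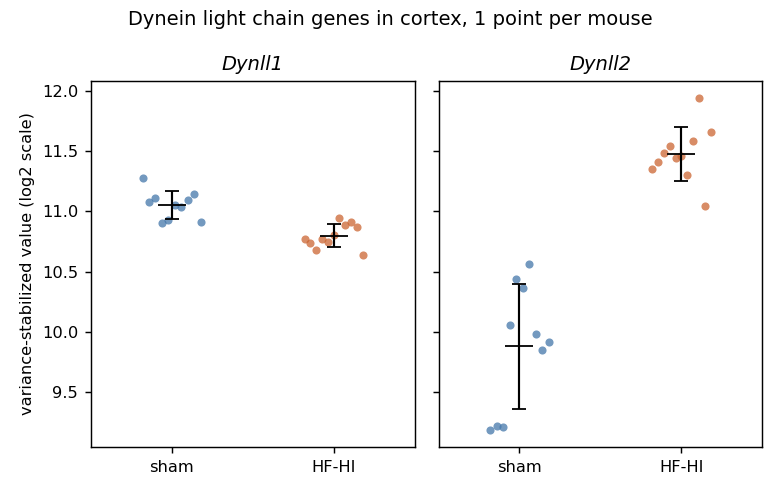
Variance-stabilized values (log2 scale, vertical axis) of Dynll1 and Dynll2 in 10 sham and 11 HF-HI cortex libraries, 1 point per mouse, with the mean and SD as bars. Dynll2 runs from 9.18 to 10.56 in sham and from 11.04 to 11.94 in HF-HI, while Dynll1 is lower in HF-HI and its ranges overlap.

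Within each library, the value of Dynll1 minus that of Dynll2 was between 0.48 and 2.09 in the sham mice and between -1.03 and -0.17 in the HF-HI mice. These differences are not corrected for transcript length, so their zero has no meaning of its own. The sham and HF-HI ranges were separate, and the mean changed by -1.85 ± 0.196 (SE, 95% interval -2.26 to -1.44, two-sided permutation test, p = 2e-05, as small as 100000 resamples allow, and 1.0e-04 adjusted over the 15 pairs tested). Across the 10 sham libraries both genes together showed a Pearson r of -0.58 (permutation p = 0.0828, adjusted over both groups 0.166) and a Spearman correlation of -0.68 (p = 0.0336, adjusted 0.0672). Without the 2 libraries farthest from the Dynll1 median the sham r was -0.27. Across the 11 HF-HI libraries r was -0.081 (permutation p = 0.827, adjusted 0.827) and the Spearman correlation was -0.17 (p = 0.619, adjusted 0.619). Without the 2 libraries farthest from the Dynll1 median the HF-HI r was -0.47 (n = 9). No relation between the levels of both genes within a group passed the adjusted threshold.

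Over all members, 17 were higher and 14 lower in HF-HI at an adjusted p under 0.05 in the fit over all genes, and 14 were not called. The members called were thus 68.9%, where the background over all genes was 66.3%. Members called higher were 37.8% against 32.6% of all genes, and members called lower 31.1% against 33.6%. These shares lie near the background. The median difference was 0.027 for the members and -0.0086 for all genes, and their mean difference was 0.076. The groups did not overlap for 9 members, 7 higher and 2 lower, where 13.5% of all genes had no overlap in either direction, 8.71% higher and 4.76% lower. The 7 were Dynll2, Kif21b, Dctn1, Myh9, Klc2, Myo18a and Kif1bp, and the 2 were Dctn2 and Myo9a.

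The libraries of each group differed in a property that touches these counts. Regressing a library's values on the GC content of the exons gave slopes that averaged -0.11 ± 0.0775 (SD, n = 10) for sham and 0.096 ± 0.0602 (SD, n = 11) for HF-HI, in log2 units per 10% GC (permutation test, two-sided, p = 4.0e-05). Among the members, the difference rose with GC content with a Spearman correlation of 0.57 over 45 genes, which share the same libraries, against 0.48 over 5539 genes. Median exonic GC content was 53.7% in the members called higher, 47.5% in those called lower and 46.7% in the others. With each library's GC trend removed, 18 members were called higher and 10 lower, and 14 of the 17 and 9 of the 14 kept their call. With the length trend removed as well, 18 were higher and 5 lower, against 17 and 14 in the deposited values. Over all genes the counts were 2034 higher and 1288 lower with the GC trend removed, and 2124 and 1051 with both trends removed. Of all genes called, 61.2% and 66.9% were thus higher, beside 64.3% and 78.3% of the members called. In the deposited values these shares were 49.3% and 54.8%. The part of GC content in the results was not tested beyond these values, and GC-removed differences are given beside the members. Centring the libraries on their medians gave 14 members higher and 17 lower, and shifted the median difference of all genes to -0.061. Over all genes centring gave 1448 higher and 2376 lower. The 10 neuron markers (such as Snap25, Rbfox3 and Slc17a7) were all in the table, 7 of them called higher and 0 lower (70% and 0%, against 32.6% and 33.6% of all genes). Their summed level was 16.06 to 16.23 in sham and 16.26 to 16.43 in HF-HI. Their part in the results was not tested. The summed level of 7 of 8 astrocyte markers was 16.01 to 16.14 in sham and 16.06 to 16.20 in HF-HI, and that of the 7 oligodendrocyte markers 15.26 to 15.98 and 15.29 to 15.99. Of these, 3 astrocyte markers were called higher and 1 lower, and 2 oligodendrocyte markers higher and 0 lower. Few markers of other cells were in the table, with 2 of 9 for microglia, 2 of 6 for endothelium, 2 of 5 for mural cells, 1 of 4 for choroid plexus and 0 of 3 for ependyma. For microglia and for endothelium, 1 marker was called higher and 1 lower. No marker of mural cells or choroid plexus was called.

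**Figure D2:**
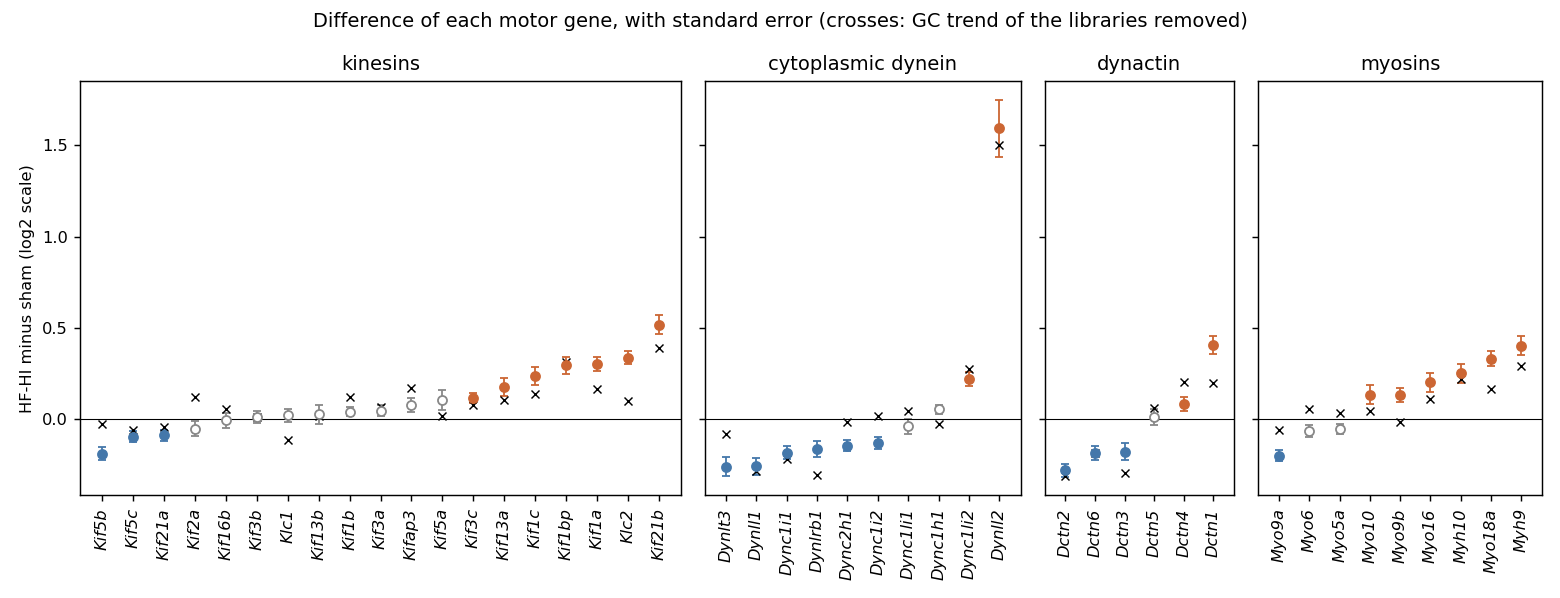
Difference HF-HI minus sham (log2 scale, vertical axis) of 44 of the 45 motor genes with its standard error, by class, filled where the adjusted p from limma was under 0.05 (orange higher, blue lower) and open otherwise. Crosses mark the difference once each library's GC trend was removed. Dynll2 at 1.59 stands above all other members, the next being Kif21b at 0.52.

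Among the kinesins, 7 of 19 members were called higher, 3 lower and 9 were not called (36.8% higher against 32.6% of all genes, and 15.8% lower against 33.6%). Their median difference was 0.048, and -0.0040 with libraries centred. With the GC trend removed 10 were higher and 1 lower, and with the length trend removed as well 9 were higher and 0 lower. Of all genes called, 61.2% and 66.9% were higher in these settings.

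Kinesin-1, the motor of fast axonal transport, is built from heavy chains encoded by Kif5a, Kif5b and Kif5c and from light chains that bind cargo. Kif5a, the neuronal heavy chain mutated in hereditary spastic paraplegia, ran from 14.45 to 14.79 in sham (median 14.65) and from 14.33 to 14.86 in HF-HI (median 14.78). The ranges overlapped, and the lowest value of all 21 was that of HF-HI replicate 9. The difference of Kif5a was 0.11 ± 0.0554 (SE, limma adjusted p = 0.0951), and without HF-HI replicate 9 it was 0.15 (adjusted p = 0.00401). Kif5b, the heavy chain used in most cell types, ran from 12.60 to 12.92 in sham (median 12.81) and from 12.55 to 12.68 in HF-HI (median 12.60). Of the 10 sham libraries, 9 lay above all HF-HI libraries, and sham replicate 5 lay among them. Kif5b differed by -0.19 ± 0.0349 (SE, limma adjusted p = 5.96e-05), but by -0.028 (adjusted p = 0.397) with the GC trend removed. Kif5c, another neuronal heavy chain, differed by -0.095 ± 0.0301 (limma adjusted p = 0.00833) and by -0.061 (adjusted p = 0.0795) without the GC trend, its ranges of 14.43 to 14.62 in sham and 14.32 to 14.56 in HF-HI overlapping.

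Of the kinesin light chains, Klc2 was higher in HF-HI, running from 10.13 to 10.41 in sham (median 10.28) and from 10.49 to 10.76 in HF-HI (median 10.62). The groups were separate. The difference was 0.34 ± 0.0354 (SE, limma adjusted p = 4.22e-08) and 0.10 (adjusted p = 0.0337) with the GC trend removed. Klc1 ran from 12.28 to 12.48 in sham and from 12.30 to 12.63 in HF-HI, nearly the same span, with a difference of 0.022 ± 0.0361 (adjusted p = 0.609) that became -0.11 (adjusted p = 0.0451) without the GC trend. Its gene overlaps Xrcc3 on the opposite strand, and whether the counting used the strand is not given in the sources used here. Dctn3, Kif2a, Myo9b and Myo18a also overlap a protein-coding gene (Il11ra1, Dimt1, Haus8 and Gm10277).

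Kinesin-3 motors carry synaptic vesicle precursors and dense core vesicles. Kif1a, the main neuronal member, ran from 13.75 to 14.05 in sham (median 13.92) and from 14.05 to 14.33 in HF-HI (median 14.25). Only the highest sham and the lowest HF-HI library overlapped. It differed by 0.30 ± 0.0392 (SE, limma adjusted p = 7.08e-07), and by 0.17 (adjusted p = 1.44e-05) without the GC trend. Kif1b, which carries vesicles and mitochondria, differed by 0.042 ± 0.0252 (adjusted p = 0.147) within overlapping ranges of 14.33 to 14.49 and 14.40 to 14.52, and by 0.12 (adjusted p = 7.15e-04) without the GC trend. Kif1bp, the binding protein that inhibits several kinesins, ran from 9.98 to 10.39 in sham (median 10.22) and from 10.42 to 10.68 in HF-HI (median 10.51), without overlap, and differed by 0.30 ± 0.0469 (limma adjusted p = 9.56e-06) and by 0.31 without the GC trend. Kif1c and Kif13a, both vesicle carriers, were higher by 0.24 (adjusted p = 3.10e-04) and 0.18 (adjusted p = 0.00290), and their GC-removed differences were 0.14 and 0.11, the latter not called.

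Kif21a and Kif21b encode related motors that slow microtubule growth at the plus end. Kif21b ran from 9.31 to 9.68 in sham (median 9.53) and from 9.74 to 10.17 in HF-HI (median 10.08). The groups were separate, with a gap between 9.68 and 9.74. Its difference of 0.52 ± 0.0509 (SE, limma adjusted p = 1.54e-08) was the second largest among the members and stood at rank 292 among all genes, and it was 0.39 (adjusted p = 3.06e-08) without the GC trend. Kif21a ran from 11.94 to 12.12 in sham and from 11.84 to 12.02 in HF-HI, overlapping, with a difference of -0.088 ± 0.0290 (limma adjusted p = 0.0106) and -0.043 (adjusted p = 0.174) without the GC trend.

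Kinesin-2, which serves cilia and axonal transport, pairs Kif3a with Kif3b or Kif3c and binds cargo through Kifap3. Kif3c was higher, running from 11.63 to 11.81 in sham and from 11.72 to 11.91 in HF-HI, with 9 of 11 HF-HI libraries above all sham libraries and a difference of 0.12 ± 0.0276 (SE, limma adjusted p = 7.45e-04; 0.079 without the GC trend, adjusted p = 0.00289). The differences of Kif3a and Kif3b were 0.048 ± 0.0286 (adjusted p = 0.141) and 0.012 ± 0.0320 (adjusted p = 0.757), and Kifap3 differed by 0.078 ± 0.0391 (adjusted p = 0.0810). These 3 were not called, and with the GC trend removed Kif3a (0.065, adjusted p = 0.0441) and Kifap3 (0.17, adjusted p = 2.17e-04) were, while Kif3b (0.014, adjusted p = 0.705) was not. Kif2a, a kinesin that depolymerizes microtubules, differed by -0.051 ± 0.0416 (adjusted p = 0.282), and by 0.12 (adjusted p = 0.00191) without the GC trend, but by -0.10 (adjusted p = 0.0350) with centred libraries. The endosomal kinesin Kif16b and the vesicle carrier Kif13b differed by -0.0045 and 0.027, neither of them called (adjusted p = 0.928 and 0.674), and by 0.057 and 0.018 without the GC trend, again not called.

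**Figure D3:**
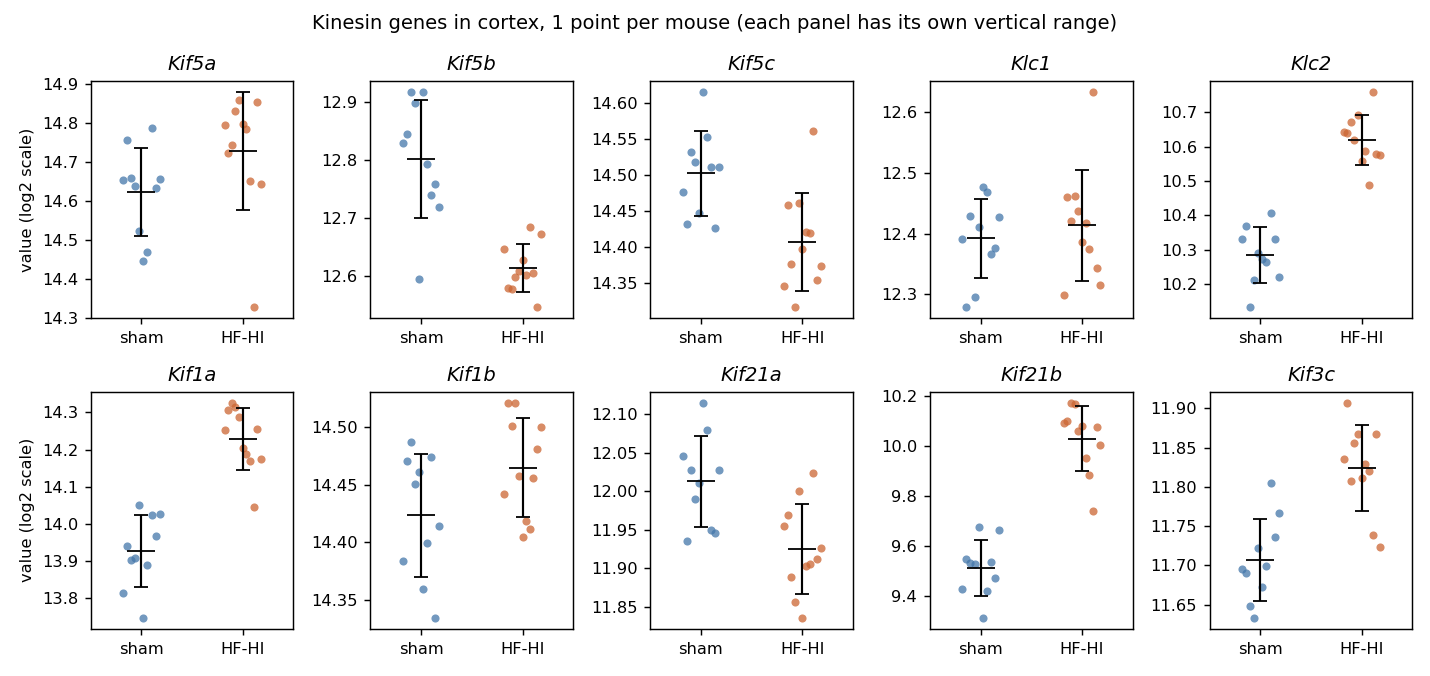
Variance-stabilized values (log2 scale, vertical axis, own range in each panel) of 10 kinesin genes in sham and HF-HI cortex, 1 point per mouse, with mean and SD. Klc2 and Kif21b are separate between the groups, whereas Kif5a, Klc1 and Kif1b overlap over most of their range.

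Among the cytoplasmic dynein genes, 2 of 10 members were called higher and 6 lower, with 2 not called (20% higher against 32.6% of all genes, and 60% lower against 33.6%). Their median difference was -0.14 whereas their mean, in which Dynll2 has a large weight, was 0.069. The median was -0.020 with the GC trend removed, when 2 were higher and 4 lower, and with the length trend removed as well 3 were higher and 2 lower. In these settings 61.2% and 66.9% of all genes called were higher. Dync1h1, the heavy chain that holds the motor itself, ran from 14.45 to 14.60 in sham and from 14.50 to 14.67 in HF-HI, for a difference of 0.054 ± 0.0243 (SE, limma adjusted p = 0.0535). It was called in 3 of 21 fits that each left out 1 library. These were the fits without HF-HI replicate 11 or sham replicates 4 or 5, at differences of 0.059 to 0.062. With all 21 libraries Dync1h1 was called by the Wilcoxon rank-sum test (adjusted p = 0.0212). Without the GC trend its difference was -0.027 (limma adjusted p = 0.446).

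The intermediate chains, which connect dynein to dynactin, were both lower in HF-HI. Dync1i1, the neuronal form, ran from 10.12 to 10.32 in sham (median 10.22) and from 9.87 to 10.15 in HF-HI (median 10.07). Only 1 sham library lay within the HF-HI range. It differed by -0.18 ± 0.0357 (SE, limma adjusted p = 1.07e-04), and by -0.22 (adjusted p = 1.29e-05) without the GC trend. Dync1i2, the widely expressed form, differed by -0.13 ± 0.0348 (limma adjusted p = 0.00230) but by 0.018 (adjusted p = 0.718) without the GC trend. Of its 50-base runs 1.83% occur in other genes.

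The light intermediate chains bind the adaptors that select cargo. Dync1li2 ran from 11.65 to 11.99 in sham (median 11.83) and from 11.96 to 12.10 in HF-HI (median 12.05). Of the 11 HF-HI libraries, 9 lay above all sham libraries, and the difference was 0.22 ± 0.0370 (SE, limma adjusted p = 2.04e-05), or 0.28 (adjusted p = 8.43e-07) without the GC trend. Dync1li1 differed by -0.038 ± 0.0419 (adjusted p = 0.431) over ranges of 9.39 to 9.73 and 9.44 to 9.78. Without the GC trend its difference was 0.043 (adjusted p = 0.331), and without the GC and length trends 0.11 (adjusted p = 0.0196).

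The remaining light chains were lower in HF-HI in the deposited values. Dynlt3, a Tctex-type light chain, ran from 10.61 to 10.94 in sham (median 10.76) and from 10.33 to 10.82 in HF-HI (median 10.48), with 9 of 11 HF-HI libraries below all sham libraries. It differed by -0.26 ± 0.0525 (SE, limma adjusted p = 1.64e-04), and by -0.081 (adjusted p = 0.0483) without the GC trend. Without the GC and length trends the sign of Dynlt3 turned, at 0.035, and it was not called (adjusted p = 0.337). Dynlrb1, the roadblock light chain, ran from 9.33 to 9.71 in sham (median 9.43) and from 9.24 to 9.45 in HF-HI (median 9.28). The ranges overlapped between 9.33 and 9.45, and the difference was -0.16 ± 0.0419 (SE, limma adjusted p = 0.00168), or -0.30 (adjusted p = 2.39e-06) without the GC trend. With the length trend removed as well, Dynlrb1 differed by -0.049 (adjusted p = 0.145) and was not called. Dync2h1, the heavy chain of the separate dynein that works inside cilia, differed by -0.14 ± 0.0319 (SE, limma adjusted p = 4.23e-04), and -0.012 (adjusted p = 0.744) without the GC trend.

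Dynactin is a large complex of a shoulder with a projecting arm, an actin-like filament and a pointed end. All 6 of its genes covered by the rule were in the table, 2 called higher, 3 lower and 1 not called (33.3% and 50%, against 32.6% and 33.6% of all genes). Their median difference was -0.083. With libraries centred, 1 was higher and 3 lower, and with the GC and length trends removed 3 were higher and 1 lower, with a median of 0.062. Of all genes called, 37.9% and 66.9% were higher in these settings.

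The 3 genes of the arm and shoulder moved in opposite directions. Dctn1, whose product forms the arm that grips microtubules and dynein, ran from 11.01 to 11.53 in sham (median 11.29) and from 11.64 to 11.78 in HF-HI (median 11.70). The groups were separate, with sham spread over a wider range, and the difference was 0.41 ± 0.0478 (SE, limma adjusted p = 1.85e-07), or 0.20 (adjusted p = 7.36e-05) without the GC trend. Dctn2, the shoulder subunit dynamitin, which takes the complex apart when overproduced, ran from 10.69 to 11.003 in sham (median 10.83) and from 10.45 to 10.62 in HF-HI (median 10.55). Again the groups were separate, here with HF-HI below, and the difference was -0.28 ± 0.0355 (limma adjusted p = 5.60e-07), or -0.31 (adjusted p = 3.79e-07) without the GC trend. Dctn3, the small shoulder subunit, differed by -0.18 ± 0.0479 (limma adjusted p = 0.00242) and by -0.29 (adjusted p = 7.46e-06) without the GC trend, but by -0.041 (adjusted p = 0.318, not called) without the GC and length trends, its ranges of 8.73 to 9.18 in sham and 8.59 to 8.89 in HF-HI overlapping. It overlaps Il11ra1 on the opposite strand.

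At the pointed end, Dctn6 differed by -0.18 ± 0.0373 (SE, limma adjusted p = 1.64e-04), and by -0.18 (adjusted p = 2.64e-04) without the GC trend. Without the GC and length trends it differed by -0.083 and was not called (adjusted p = 0.0515). Of its 11 HF-HI libraries, 10 lay below all sham libraries and 1, at 8.93, lay above the sham median. Dctn4 stood at the threshold, with a difference of 0.085 ± 0.0372 (limma adjusted p = 0.0487), and was called in 7 of 21 fits that each left out 1 library. The differences in those fits were 0.067 to 0.10 and the adjusted p-values 0.0150 to 0.103. Its GC-removed difference was 0.20 (adjusted p = 1.66e-04). With centred libraries Dctn4 differed by 0.033 (adjusted p = 0.436). Dctn5 differed by 0.013 ± 0.0450 (adjusted p = 0.812), by 0.063 (adjusted p = 0.237) without the GC trend and by 0.17 (adjusted p = 0.00602) without the GC and length trends.

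Among the myosins, 6 of 10 members were called higher and 2 lower, with 2 not called (60% higher against 32.6% of all genes, and 20% lower against 33.6%). The median difference was 0.13, and 0.051 with the GC trend removed, when 4 were higher and 2 lower. Centring the libraries gave 4 higher and 4 lower. Of all genes called, 61.2% were higher with the GC trend removed and 37.9% with libraries centred.

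Myh9 and Myh10, nonmuscle myosin II heavy chains that form contractile filaments with actin, were both higher in HF-HI. Myh9 ran from 9.55 to 10.01 in sham (median 9.88) and from 10.13 to 10.48 in HF-HI (median 10.22). The groups were separate, and the difference was 0.40 ± 0.0519 (SE, limma adjusted p = 6.91e-07), or 0.29 (adjusted p = 2.17e-05) without the GC trend. Myh10, the form most abundant in brain, ran from 11.78 to 12.21 in sham (median 12.10) and from 12.18 to 12.41 in HF-HI (median 12.27), with 10 of 11 HF-HI libraries above all sham libraries. It differed by 0.25 ± 0.0510 (limma adjusted p = 1.67e-04) and by 0.22 (adjusted p = 5.92e-04) without the GC trend. Myo18a, an unconventional myosin that joins such filaments, ran from 10.55 to 10.89 in sham (median 10.74) and from 10.93 to 11.14 in HF-HI (median 11.05), without overlap, and differed by 0.33 ± 0.0408 (limma adjusted p = 3.42e-07), or 0.17 (adjusted p = 5.12e-06) without the GC trend.

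The myosins that act as single carriers or signalling proteins were mixed. Myo16, a brain-enriched myosin, differed by 0.20 ± 0.0521 (SE, limma adjusted p = 0.00166) and by 0.11 (adjusted p = 0.0384) without the GC trend, or 0.097 (adjusted p = 0.0695) without the length trend as well, and all 11 HF-HI libraries lay above the sham median. Myo9a, a class IX myosin, was lower in every HF-HI library than in any sham library, running from 12.32 to 12.52 in sham (median 12.41) and from 12.15 to 12.31 in HF-HI (median 12.24). Its difference was -0.20 ± 0.0292 (SE, limma adjusted p = 3.55e-06), and -0.059 (adjusted p = 0.0215) without the GC trend. Myo9b and Myo10, another class IX myosin and the motor of filopodia, were each higher by 0.13 (adjusted p = 0.00423 and 0.0259), but neither was called without the GC trend, where Myo9b differed by -0.015 and Myo10 by 0.047. Myo5a, the carrier of vesicles and endoplasmic reticulum into dendritic spines, ran from 13.84 to 14.07 in sham and from 13.86 to 14.01 in HF-HI and differed by -0.052 ± 0.0277 (adjusted p = 0.102), which missed the threshold. It was called without sham replicate 9 (-0.068, adjusted p = 0.0208), by the Wilcoxon rank-sum test (adjusted p = 0.0314), with centred libraries (-0.10, adjusted p = 0.00332) and with quantile normalization (-0.16, adjusted p = 2.05e-05), whereas without the GC trend the difference of Myo5a was 0.034 (adjusted p = 0.278). Myo6, which moves towards the minus ends of actin and takes part in endocytosis, differed by -0.066 ± 0.0326 (adjusted p = 0.0782), by 0.055 (adjusted p = 0.0804) without the GC trend, and by -0.12 (adjusted p = 0.00387) with centred libraries.

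**Figure D4:**
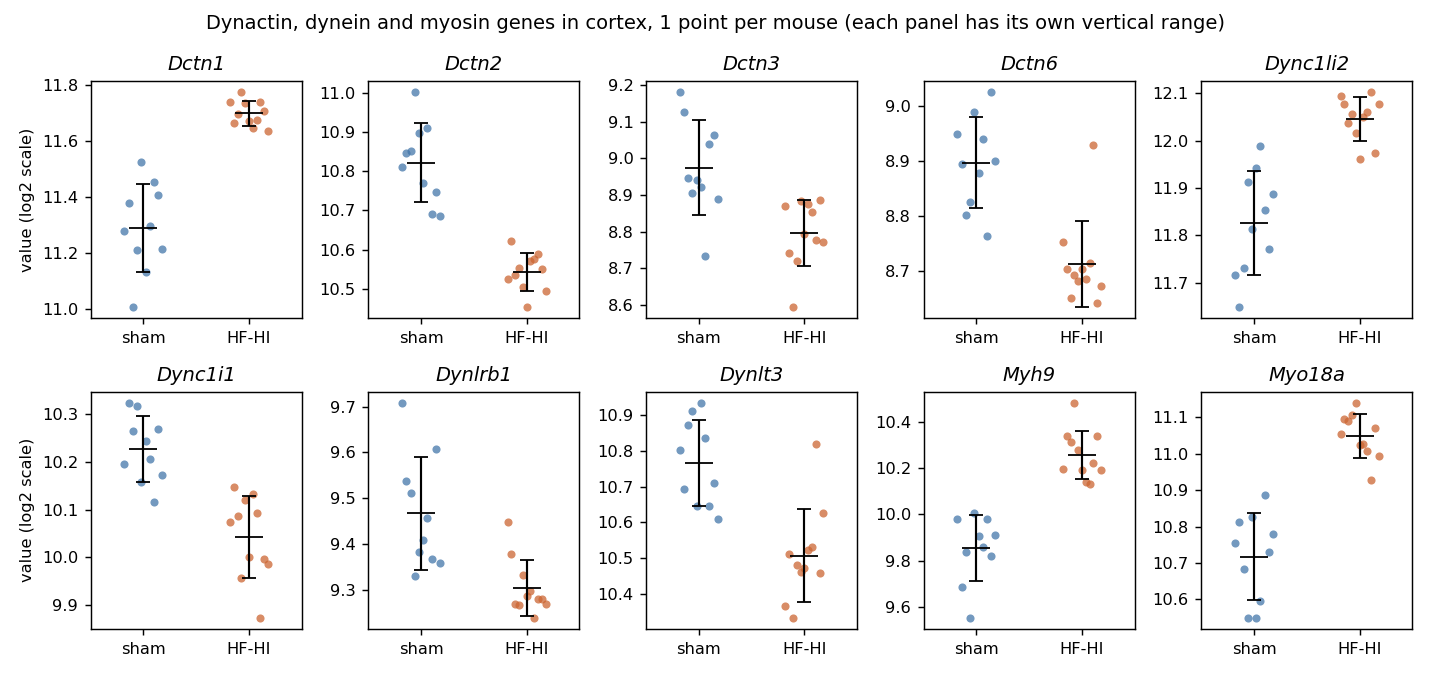
Variance-stabilized values (log2 scale, vertical axis, own range in each panel) of 4 dynactin, 4 dynein and 2 myosin genes in sham and HF-HI cortex, 1 point per mouse, with mean and SD. Dctn1, Myh9 and Myo18a are higher and Dctn2 is lower in HF-HI without overlap, and Dctn3, Dctn6, Dync1li2, Dync1i1, Dynlrb1 and Dynlt3 overlap in part.

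Whether paralogs of 1 family changed by unlike amounts was tested on the difference of both genes within each library. Of 20 listed pairs, 15 had both genes in the table, and 12 of these differed between the groups at an adjusted p under 0.05 over the 15 pairs (permutation test, two-sided). Of all single genes 66.3% were called, and how often pairs of unrelated genes differ was not tested. The count of pairs therefore has no background beside it. The ranges of the groups were separate in 3 pairs, Dynll1 and Dynll2, Klc1 and Klc2, and Kif21a and Kif21b. Klc1 minus Klc2 lay between 1.91 and 2.30 in sham and between 1.66 and 1.89 in HF-HI, and its mean changed by -0.31 ± 0.0427 (SE, 95% interval -0.40 to -0.22, adjusted p = 1.0e-04). Kif21a minus Kif21b lay between 2.33 and 2.80 in sham and between 1.69 and 2.28 in HF-HI, a change of -0.61 ± 0.0690 (95% interval -0.75 to -0.46, adjusted p = 1.0e-04).

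Other pairs overlapped between the groups. Dync1li1 minus Dync1li2 changed by -0.26 ± 0.0395 (SE, permutation adjusted p = 1.5e-04), and by -0.23 (adjusted p = 2.25e-04) without the GC trend. With the GC trend removed, 6 pairs differed, 5 of them in both analyses with the same sign. These 5 were Dynll1 with Dynll2, Klc1 with Klc2, Kif21a with Kif21b, Dync1li1 with Dync1li2, and Kif3b with Kif3c. Kif1a minus Kif1b changed by 0.26 ± 0.0346 (permutation adjusted p = 1.2e-04) and, without the GC trend, by 0.048 (adjusted p = 0.0616). Myo9a minus Myo9b changed by -0.33 ± 0.0520 (permutation adjusted p = 1.2e-04) and, without the GC trend, by -0.044 (adjusted p = 0.164). The members of these pairs differ by 10.2 and 14.5 percentage points in exonic GC content.

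Within kinesin-1, Kif5a minus Kif5b changed by 0.29 ± 0.0699 (SE, permutation adjusted p = 0.00154), Kif5a minus Kif5c by 0.20 ± 0.0795 (adjusted p = 0.0299) and Kif5b minus Kif5c by -0.094 ± 0.0370 (adjusted p = 0.0298). Without the GC trend these changes were 0.047, 0.080 and 0.033, and none passed the threshold (permutation adjusted p = 0.264, 0.292 and 0.477). Without sham replicate 6 the change of Kif5a minus Kif5c was 0.17 and without sham replicate 2 that of Kif5b minus Kif5c was -0.082, and neither then passed. Kif13a minus Kif13b changed by 0.15 ± 0.0624 (permutation adjusted p = 0.0333) and did not pass in 7 of 21 analyses that each left out 1 library, where it ran from 0.13 to 0.15. Myh9 minus Myh10 changed by 0.15 ± 0.0557 (adjusted p = 0.0247), and by 0.070 (adjusted p = 0.264) without the GC trend. The pairs that did not pass were Dync1i1 with Dync1i2 (-0.054, 95% interval -0.15 to 0.047, but -0.23 with adjusted p = 0.00186 without the GC trend), Kif3a with Kif3b (0.036, interval -0.039 to 0.11) and Kif3a with Kif3c (-0.069, interval -0.14 to -6.8e-05, adjusted p = 0.0570).

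**Figure D5:**
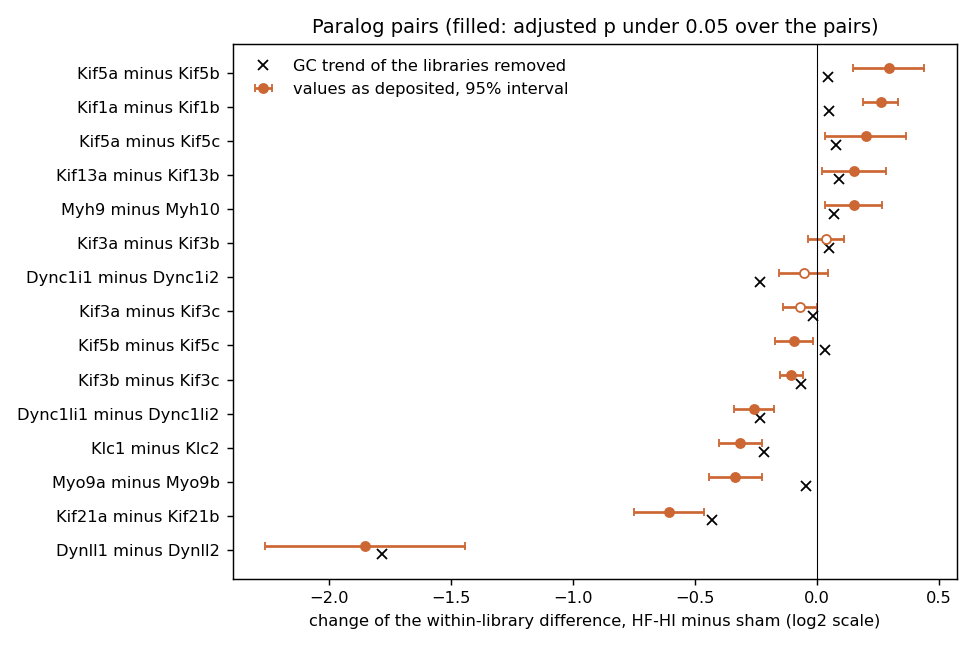
Change of the within-library difference of 15 paralog pairs, HF-HI minus sham (log2 scale, horizontal axis), with its 95% interval, filled where the permutation p adjusted over the pairs was under 0.05. Crosses mark the change with each library's GC trend removed. Dynll1 minus Dynll2 lies at -1.85 in the deposited values and at -1.79 without the GC trend, and the crosses of Kif5a minus Kif5b, Kif1a minus Kif1b and Myo9a minus Myo9b lie near 0.

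Of 61 partner genes listed by known role, 44 were in the table, with 13 called higher and 12 lower (29.5% and 27.3%, against 32.6% and 33.6% of all genes). Among kinesin adaptors and regulators, with which the kinesin Kifc2 was listed, 7 of 15 were higher and 3 lower. Among dynein and dynactin partners 3 of 16 were higher and 6 lower. Among myosin light chains and regulators, with which Cyfip2 was listed, 3 of 13 were higher and 3 lower. Mapk8ip3, a scaffold that links kinesin-1 and dynein to cargo, had the largest positive difference of the list at 0.49 ± 0.0452 (SE, limma adjusted p = 6.62e-09; 0.39 without the GC trend). Cyfip2, a subunit of the complex that starts branched actin, differed by 0.48 ± 0.0541 (limma adjusted p = 1.18e-07; 0.43 without the GC trend), and the dynein cofactor Nudc by 0.45 ± 0.0474 (adjusted p = 4.22e-08; 0.28 without the GC trend). At the other end, Myl6, the essential light chain of nonmuscle myosin II, differed by -0.28 ± 0.0493 (limma adjusted p = 4.01e-05; -0.36 without the GC trend) and was lower in every HF-HI library than in any sham library. Capza2, a capping protein of the dynactin filament, differed by -0.27 ± 0.0371 (limma adjusted p = 1.45e-06; -0.062 without the GC trend, adjusted p = 0.109), and Rhot1, the mitochondrial anchor of kinesin and dynein, by -0.23 ± 0.0326 (limma adjusted p = 3.11e-06; -0.088 without the GC trend, adjusted p = 0.0193).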

How the data were processed

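Cortex RNA from 10 sham and 11 HF-HI mice was measured, 1 library per mouse. The authors aligned reads to mm10 with STAR, counted them per transcript with eXpress and normalized with DESeq2. The versions of STAR and eXpress and the gene annotation are not given in the sources used here. The authors deposited variance-stabilized values on a log2 scale, which run from 4.59 to 17.7. They understate changes of genes with few reads. Counts were not analysed here, so total depth is unknown. Whole counts leave a spacing between the values, which was read on the linear scale from 500 to 600. The relative depth it gave (1 for the median library) was 0.580 to 1.26 in sham and 0.548 to 1.63 in HF-HI (permutation test of the log2 depths, p = 0.106, two-sided). The median SD within a group was 0.104.

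Symbols, coordinates, exonic GC content and coding sequences came from GENCODE (GRCm38, identical to mm10), which named 5541 of the 5544 genes and gave a GC content for 5539. All 5544 genes were fitted with limma 3.58.1 in R 4.3.3 (lmFit, eBayes with a mean-variance trend, 2 groups, no covariate, two-sided), with Benjamini-Hochberg adjustment over all genes and a threshold of 0.05. Figures were drawn with matplotlib 3.10.9, and everything else was computed in Python 3.11.15 with scipy 1.17.1, numpy 2.4.6 and pandas 2.3.3. Each permutation test drew 100000 resamples. To remove GC trends, a lowess curve (span 0.3) was fitted to each library's deviations from the mean of all libraries and subtracted. A biological difference that tracks GC content would be removed with it. Steps were tested on simulated data. Replicates are libraries of separate mice, and no library was left out.

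The members and lists were chosen with earlier results of these data known. Full values are given for Dynll1 and Dynll2, for up to 4 called members in each direction per class, for subunits well known in neurons, and for the 3 partner genes with the largest called difference in each direction. Kif1c, Kif13a, Kif13b, Kif16b, Dync2h1, Dctn5, Myo9b and Myo10 are named in addition. The values of 1 member, which is in all counts, are not reported here. The fits were repeated with a threshold of 0.1, a minimum difference of 0.25, no trend in eBayes, a Wilcoxon rank-sum test, centred libraries, quantile normalization, genes outside the lowest quartile, the replicate number as a block, relative depth as a covariate, removal of GC trends alone, with that block or with length trends, and each library left out.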

Additional observations from a re-analysis of the deposited data

Results flagged for a closer look

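Among 67 checks of the sham libraries for a value far from the others, 1 passed the criterion, where chance gives about 1 in 20. For Dync1li1, the light intermediate chain gene, sham replicate 2 was lowest at 9.39 and the next library stood at 9.57, a gap of 0.527 of the whole range. The 11 HF-HI libraries were too many for this check.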

How the results depend on the processing

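Among the genes given with full values, Dynll1, Dynll2, Dctn1, Dctn2, Kif1a, Kif21b, Kif1bp, Myh9, Myh10 and Myo18a kept their direction and their call in all alternatives. The partner genes Mapk8ip3, Cyfip2, Nudc and Myl6 did so too. So did the pairs Dynll1 minus Dynll2, Klc1 minus Klc2, Kif21a minus Kif21b and Dync1li1 minus Dync1li2. Dynll2 ranged from 1.48 to 1.75 over the alternatives and Dynll1 from -0.31 to -0.22. A minimum difference of 0.25 left 9 motor genes higher and 3 lower, by its own construction. In each class it left 4 kinesins higher and 0 lower, 1 dynein gene higher and 2 lower, 1 dynactin gene higher and 1 lower, 3 myosins higher and 0 lower, and 8 partner genes higher and 2 lower. The share of all genes past this minimum is not given here, so these counts have no background beside them.

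Genes whose sign turned are listed from those given with full values, unless stated. With the GC trend removed, 1 kinesin and 7 partner genes were called lower. Dync1i1 minus Dync1i2 then passed at -0.23, while Kif13a minus Kif13b (0.090), Kif1a minus Kif1b (0.048), Kif5a minus Kif5b (0.047), Kif5a minus Kif5c (0.080), Myh9 minus Myh10 (0.070) and Myo9a minus Myo9b (-0.044) no longer did and Kif5b minus Kif5c turned to 0.033. Among the named genes the sign turned for Dync1h1 (-0.027), Dync1i2 (0.018), Dync1li1 (0.043), Kif2a (0.12), Klc1 (-0.11), Myo5a (0.034) and Myo6 (0.055), and among members named in addition for Myo9b (-0.015) and Kif16b (0.057). With the length trend removed as well, 5 motor genes were lower (0 kinesins, 2 dynein genes, 1 dynactin gene), 3 myosins were higher and 6 partner genes lower. Dync1i1 minus Dync1i2 (-0.14) and Kif3a minus Kif3b (0.12) passed, Kif13a minus Kif13b (0.12), Kif5a minus Kif5b (0.052), Kif5a minus Kif5c (0.081) and Myh9 minus Myh10 (0.058) did not, and the sign turned for Kif3a minus Kif3c (0.070), Kif5b minus Kif5c (0.029), Dync1h1 (-0.076), Dync1i2 (7.2e-04), Dync1li1 (0.11), Dynlt3 (0.035), Kif2a (0.12), Klc1 (-0.058) and Myo6 (0.014), and among members named in addition for Myo9b (-0.028), Kif13b (-0.026) and Kif16b (0.034). The cause was not tested.

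Centring left 1 dynactin gene higher and 4 myosins lower and turned Kif1b (-0.010), Kif3a (-0.0040), Kif3b (-0.040) and Klc1 (-0.030). Quantile normalization left 1 dynactin gene higher, brought Kif3a minus Kif3c past the threshold (-0.084) and turned Kif3a (-0.0028), Kif3b (-0.041) and Klc1 (-0.0040). Over all genes quantile normalization gave 1547 higher and 2242 lower. The Wilcoxon test left 1 dynactin gene higher, the genes outside the lowest quartile 1 dynactin gene lower, since 2 others were not in that set, and relative depth as a covariate turned Kif3b (-0.0025). For the Wilcoxon test and the genes outside the lowest quartile, the counts of all genes called are not given here.

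Same-numbered sham and HF-HI libraries correlated between -0.31 and 0.36 in their deviations over 10 pairs (4 above 0.1), and 0 sham libraries correlated best with their own number, so the numbers were not taken as a pairing. With the replicate number as a block, 15 motor genes were higher and 13 lower, 1 dynactin gene was higher, and Kif13a minus Kif13b (0.15) and Kif5a minus Kif5c (0.21) missed the threshold. With the replicate block and GC removal together, 6 motor genes were lower (0 kinesins, 3 dynein genes, 0 myosins), 3 myosins were higher and 6 partner genes lower. The counts of all genes called are not given here for either block setting, so these member counts have no background beside them. GC removal alone took the genes called lower in the whole table from 1864 to 1288. Dync1i1 minus Dync1i2 passed (-0.23), Kif13a minus Kif13b (0.086), Kif1a minus Kif1b (0.049), Kif3b minus Kif3c (-0.066), Kif5a minus Kif5b (0.049), Kif5a minus Kif5c (0.079), Myh9 minus Myh10 (0.066) and Myo9a minus Myo9b (-0.052) did not, and the sign turned for Kif5b minus Kif5c (0.031), Dync1h1 (-0.024), Dync1i2 (0.017), Dync1li1 (0.024), Kif2a (0.12), Klc1 (-0.11), Myo5a (0.038) and Myo6 (0.051).

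With each library left out in turn, 15 to 18 motor genes were higher and 14 to 16 lower, 1 to 2 dynactin genes were higher, and 2 to 4 myosins were lower, 4 without sham replicate 9. The counts of all genes called in these fits are not given here, so the member counts have no background. With no library left out, 37.8% of members were higher and 31.1% lower, against 32.6% and 33.6% of all genes. The pairs that crossed the threshold in some of these were Kif13a minus Kif13b (0.13 to 0.19), Kif3a minus Kif3c (-0.084 to -0.056), Kif5a minus Kif5c (0.17 to 0.26) and Kif5b minus Kif5c (-0.11 to -0.078). Kif3b ranged from -0.0029 to 0.028 and Klc1 from -3.8e-04 to 0.033. The spread between mice limits all values, and depth per gene is unknown.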
